A study of Homo sapiens with 39 samples.

Results

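The earliest response of JJN3 cells to zinc was read from the 6 libraries taken after 1 h in ZnSO4 or in its control DMSO, 3 libraries each, out of 39 RNA-seq libraries in the series. The 6 were chosen by their labelled treatment and time and not by any measured value. JJN3 is an established multiple myeloma line, a malignant plasma cell, grown in RPMI medium with fetal calf serum, and no gene was altered in any group. The ZnSO4 group was exposed to zinc sulphate for 1 h. A second treated group received GSK-J4, an inhibitor of the KDM6 family of histone H3K27 demethylases, for the same 1 h. The DMSO group received that solvent for 1 h, and the T0 group was taken at the start without a treatment time. The other 27 libraries cover the 3 agents at 3, 6 and 24 h. Neither the doses nor whether the zinc-treated cells also received DMSO could be read from the labels. Nothing in them shows the replicates to be separate cultures, so a p-value here reflects the scatter among libraries, possibly technical, and no more.

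Zinc is held at very low free levels inside cells. When it rises, it binds the transcription factor MTF1, which attaches to metal response elements in promoters and switches on the metallothioneins, small cysteine-rich proteins that bind zinc, and SLC30A1 (ZnT1), the exporter of the plasma membrane. Members of the SLC39 family carry zinc the other way, into the cytosol. Metals that react with protein thiols can also activate the heat shock factor HSF1, which acts through heat shock elements, and the oxidative stress factor NRF2, whose best known target is the haem-degrading enzyme HMOX1. The immediate early genes are transcription factors and feedback regulators, such as FOS, EGR1 and DUSP1, whose transcription starts within minutes of a signal and needs no new protein.

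Promoter windows of 6 of the genes that rose are shown because they hold the element usually tied to each of these responses. Each runs from 250 bases before to 50 bases after the gene's start in RefSeq on GRCh38.p14, 5′ to 3′ on the gene's own strand. Capitals mark the metal response element core (TGCACNC or TGCGCNC) in MT1X, MT2A and SLC30A1, the heat shock element in HSPA8 and HSPA6 (the units GAA, TTC and GAA with any 2 bases between neighbours), and the CArG box bound by serum response factor in EGR1. Motifs were searched on both strands, each motif on its own, and overlapping matches were counted.
MT1X, chr16:56682220-56682519, + strand: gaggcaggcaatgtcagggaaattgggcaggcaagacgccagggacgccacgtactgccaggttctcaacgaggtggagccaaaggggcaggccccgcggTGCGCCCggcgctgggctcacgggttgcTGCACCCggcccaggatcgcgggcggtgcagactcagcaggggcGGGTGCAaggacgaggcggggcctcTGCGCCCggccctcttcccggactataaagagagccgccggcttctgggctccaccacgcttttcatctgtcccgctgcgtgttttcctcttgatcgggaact
MT2A, chr16:56608334-56608633, + strand: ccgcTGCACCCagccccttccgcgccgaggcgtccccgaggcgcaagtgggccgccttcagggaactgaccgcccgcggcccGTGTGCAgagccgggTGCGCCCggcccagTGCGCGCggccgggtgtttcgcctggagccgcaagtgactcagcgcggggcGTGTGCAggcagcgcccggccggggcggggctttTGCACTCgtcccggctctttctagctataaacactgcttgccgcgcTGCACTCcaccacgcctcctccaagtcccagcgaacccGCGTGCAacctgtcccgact
SLC30A1, chr1:211579112-211579411, - strand: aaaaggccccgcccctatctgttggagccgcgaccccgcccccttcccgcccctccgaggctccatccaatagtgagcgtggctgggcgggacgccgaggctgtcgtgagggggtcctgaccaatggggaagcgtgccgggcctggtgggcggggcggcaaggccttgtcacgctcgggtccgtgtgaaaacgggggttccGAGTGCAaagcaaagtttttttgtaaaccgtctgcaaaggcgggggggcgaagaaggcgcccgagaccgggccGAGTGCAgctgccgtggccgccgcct
HSPA8, chr11:123062087-123062386, - strand: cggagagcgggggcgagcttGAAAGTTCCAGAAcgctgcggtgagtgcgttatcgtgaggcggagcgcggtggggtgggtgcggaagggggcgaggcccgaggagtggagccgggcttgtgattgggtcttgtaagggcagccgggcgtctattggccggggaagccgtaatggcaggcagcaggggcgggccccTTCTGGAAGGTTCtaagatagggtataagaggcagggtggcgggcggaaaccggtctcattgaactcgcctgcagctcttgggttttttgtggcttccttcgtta
HSPA6, chr1:161524290-161524589, + strand: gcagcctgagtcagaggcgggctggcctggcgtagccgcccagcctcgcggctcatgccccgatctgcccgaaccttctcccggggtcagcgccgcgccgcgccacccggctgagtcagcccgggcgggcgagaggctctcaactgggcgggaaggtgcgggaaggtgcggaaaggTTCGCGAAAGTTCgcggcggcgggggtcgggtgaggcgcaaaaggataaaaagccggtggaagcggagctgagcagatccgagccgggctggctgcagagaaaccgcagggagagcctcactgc
EGR1, chr5:138465229-138465528, + strand: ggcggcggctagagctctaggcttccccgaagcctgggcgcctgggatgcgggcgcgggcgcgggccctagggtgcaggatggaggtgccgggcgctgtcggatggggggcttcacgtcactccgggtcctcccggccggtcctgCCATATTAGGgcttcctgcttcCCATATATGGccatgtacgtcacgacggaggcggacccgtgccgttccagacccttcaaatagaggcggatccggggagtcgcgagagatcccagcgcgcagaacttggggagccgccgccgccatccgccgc
The metal response element core was found 8 times in the window of MT2A, 4 times in that of MT1X and 2 times in that of SLC30A1. The EGR1 window also holds 2 such cores, left in lower case here.

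The 6 libraries held 5275174 to 10695671 counts (median 6433349), and 24087 to 29200 genes had at least 1 count. No pair of replicates was a duplicate, with a chi-squared per gene of 1.42 to 3.02 between libraries of one group. The plasma cell list summed to 13882 to 14761 CPM (library-scaled counts, with TMM factors) in ZnSO4 libraries and to 14042 to 14938 CPM in DMSO libraries, led by JCHAIN, the joining chain of secreted antibody. Markers of myeloid cells summed to 2.24 to 3.37 CPM in ZnSO4 libraries and 1.44 to 3.05 CPM in DMSO libraries, with FCGR3A and MPO at 0 counts, and those of red cells and platelets to 1.12 to 1.95 and 0.246 to 2.16 CPM, with PPBP at 0. The lists of other cell types that summed higher rested mainly on 1 gene each. T and NK cell markers summed to 63.2 to 67.6 CPM in ZnSO4 libraries and 60.3 to 65.2 CPM in DMSO libraries, of which CD247, the one member tested, averaged 62.5 CPM. Those of stroma, endothelium and epithelium summed to 70.6 to 90.0 and 64.8 to 86.7 CPM, led by EPCAM at 38.9 CPM and with KRT19 at 0, and those of earlier B cells to 32.5 to 34.5 and 32.6 to 35.1 CPM, led by BACH2 at 27.7 CPM. Of these 5 lists of other cell types, 1 T and NK cell, 1 myeloid, 3 earlier B cell and 1 red cell and platelet marker were tested. From stroma, endothelium and epithelium 6 were tested. No tested marker was called, and the rest had no test. In all, 3 libraries stood apart. DMSO replicate 1 did so by its metallothioneins and chaperones and ZnSO4 replicate 2 by its ribosomal and 7SK RNA. ZnSO4 replicate 3, the deepest at 10695671 counts, differed more from the others of its group over all genes, with a chi-squared per gene of 3.02 and 2.85 against 1.54 between replicates 1 and 2. Of the 98 calls described next, 33 were lost without DMSO replicate 1, 24 without ZnSO4 replicate 2 and 32 without ZnSO4 replicate 3. Libraries that did not stand apart cost calls as well, 27 without DMSO replicate 2, 32 without DMSO replicate 3 and 13 without ZnSO4 replicate 1. The numbers lost overlapped between the libraries that stood apart (24 to 33) and the others (13 to 32). Why calls were lost was not tested. The genes named that lost their calls are given with their values. In bulk RNA, a change in the share of cells and a change per cell cannot be told apart.

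Of 14460 genes tested across the series, 98 (0.678%) changed after 1 h in ZnSO4 relative to DMSO at a Benjamini-Hochberg adjusted p under 0.05 by edgeR's quasi-likelihood test. The response was mostly upward, with 72 genes higher (0.498%) and 26 lower (0.18%). At least 2-fold changes were nearly all rises, 22 (0.152%) against 2 falls (0.0138%), which were TMEM183AP3 and POF1B. The groups' libraries did not overlap for 1751 genes (12.1%), and 931 genes (6.44%) had an unadjusted p under 0.05. The largest rises among genes with a symbol whose groups did not overlap were metallothioneins, the zinc exporter SLC30A1, the chaperones DNAJB1 and HSPA6, and EGR1, DDIT4, FOS and HMOX1. The other falls were smaller than 2-fold, and among them were the signalling regulator RGS1 and the plasma cell factors IRF4 and PRDM1. The median log2 fold change over all genes tested was 0.0005. Each call was repeated with each of the 6 libraries left out in turn: 34 of the 72 rises and 8 of the 26 falls were called every time. Where a gene named here lost its call, the value without that library is given.

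**Figure D1:**
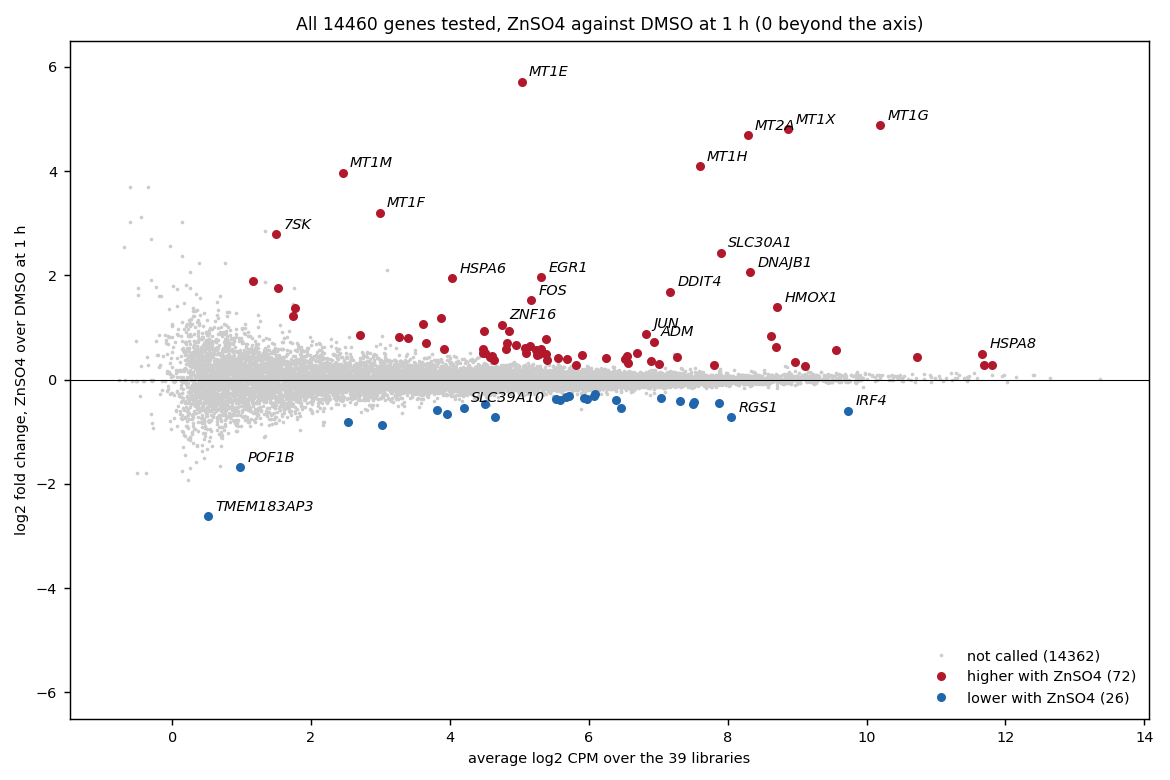
Each point is one of the 14460 genes tested, with its average log2 CPM over the 39 libraries on the x axis and its log2 fold change, ZnSO4 over DMSO at 1 h, on the y axis. Red points are the 72 genes higher and blue points the 26 lower at adjusted p under 0.05. The 7 metallothioneins called and SLC30A1 stand at the top, between 2.44 and 5.72, with 7SK at 2.79 among them, while the falls with an average log2 CPM of at least 1 lie within 1 log2 unit of 0.

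Of the 8 metallothioneins tested, 7 were higher and 0 lower, where 0.498% of all genes were higher. The median log2 fold change over the 8 was 4.39. Only 4 of the 8 averaged 1 CPM or more in DMSO libraries. Of the other 4, MT1E would pass the filter on low counts within the 6 libraries, through its ZnSO4 libraries, while MT1F, MT1M and MT1B entered the test through libraries of later times. MT1X, one of the most widely made isoforms, had 265, 304 and 310 CPM in ZnSO4 libraries, against 15, 6.49 and 9.53 CPM in DMSO libraries. Its log2 fold change was 4.80 ± 0.12 (SE, adjusted p = 1.7e-40), and the groups stood far apart. MT2A had 70.1, 89.3 and 90.7 CPM in ZnSO4 libraries, against 5.89, 1.06 and 2.34 CPM in DMSO libraries. MT1G had 220, 246 and 273 CPM in ZnSO4 libraries, against 20.6, 0.132 and 2.16 CPM in DMSO libraries, and MT1H showed the same unevenness, with 21.1, 29.6 and 26.7 CPM against 3.68, 0.132 and 0.18 CPM. In these 3 genes DMSO replicate 1 was the highest control. Without it the log2 fold change was 7.93 for MT1G in place of 4.88, 7.24 for MT1H in place of 4.10 and 5.70 for MT2A in place of 4.69, so the size of these rises depends on that library while the calls do not. Without DMSO replicate 2, its lowest control, MT1G had 4.26.

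The rarer isoforms were read from few counts. MT1E had 7.27, 7.81 and 9.43 CPM in ZnSO4 libraries, against 0.123, 0 and 0.36 CPM in DMSO libraries. That is 184 counts against 3, a depth-scaled ratio of 60.0 with a 95% counting interval of 20.2 to 294. Its fitted log2 fold change was 5.72, and 6.67 without DMSO replicate 3, which held most of its control counts. MT1F had 2.8, 1.24 and 1.77 CPM in ZnSO4 libraries, against 0.368, 0.132 and 0 CPM in DMSO libraries (log2 fold change 3.21 ± 0.59, adjusted p = 0.00045). DMSO replicate 1 was its highest control too, and without it the fitted value was 4.32. MT1M had 0.559, 1.78 and 0.84 CPM in ZnSO4 libraries, against 0.123, 0 and 0 CPM in DMSO libraries. These are 22 counts against 1, a ratio of 21.5 (3.48 to 889), and without DMSO replicate 1 the other controls held no count. The fitted log2 fold change of MT1M was 3.97, and 5.74 without that library, values that depend on the prior count of the fit. Its call was lost without any one of 3 libraries, DMSO replicate 2 or 3 or ZnSO4 replicate 2 (adjusted p 0.081 to 0.14), and with DESeq2 (0.059). MT1B was the tested member not called, with 1 count in ZnSO4 libraries and 0 in DMSO libraries. MT1A also had 1 and 0 counts, and the brain isoform MT3 and the epithelial isoform MT4 had none in any library of the series. Metallothionein genes are close copies of one another, so the authors' counting could have divided reads between them.

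Of the zinc exporters, 1 of 7 tested rose, where 0.498% of all genes rose. This was SLC30A1. It had 360, 358 and 358 CPM in ZnSO4 libraries, against 59.1, 68.4 and 72.5 CPM in DMSO libraries, a log2 fold change of 2.44 ± 0.07 (adjusted p = 9.9e-37). The 3 treated libraries were almost equal and all lay far above the controls. SLC30A2, which loads zinc into vesicles, had 7 counts in ZnSO4 libraries and 1 in DMSO libraries (ratio 6.85, 0.880 to 309) and was not called. The other 5, among them SLC30A5 of the secretory pathway (81.1, 71.9 and 82.9 CPM against 77.8, 83.2 and 78.6 CPM), lay close to 0, and the list's median log2 fold change was 0.02.

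Of the zinc importers, 0 of 11 tested rose and 1 fell, where 0.498% of all genes rose and 0.18% fell. The gene that fell was SLC39A10 (ZIP10), which brings zinc in across the plasma membrane. It had 18.5, 22 and 16.4 CPM in ZnSO4 libraries, against 24.3, 28.4 and 28.8 CPM in DMSO libraries, and fell by 0.54 on the log2 scale (SE 0.11, adjusted p = 0.0013). The groups did not overlap, but the call was lost without ZnSO4 replicate 3 (-0.41, adjusted p = 0.17). The list's median was -0.02. MTF1 itself had 38, 39.4 and 35.9 CPM in ZnSO4 libraries and 44.6, 38.7 and 44.1 CPM in DMSO libraries (-0.17 ± 0.09, adjusted p = 0.76), and none of the 6 tested genes of the MTF1 and copper handling list changed.

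**Figure D2:**
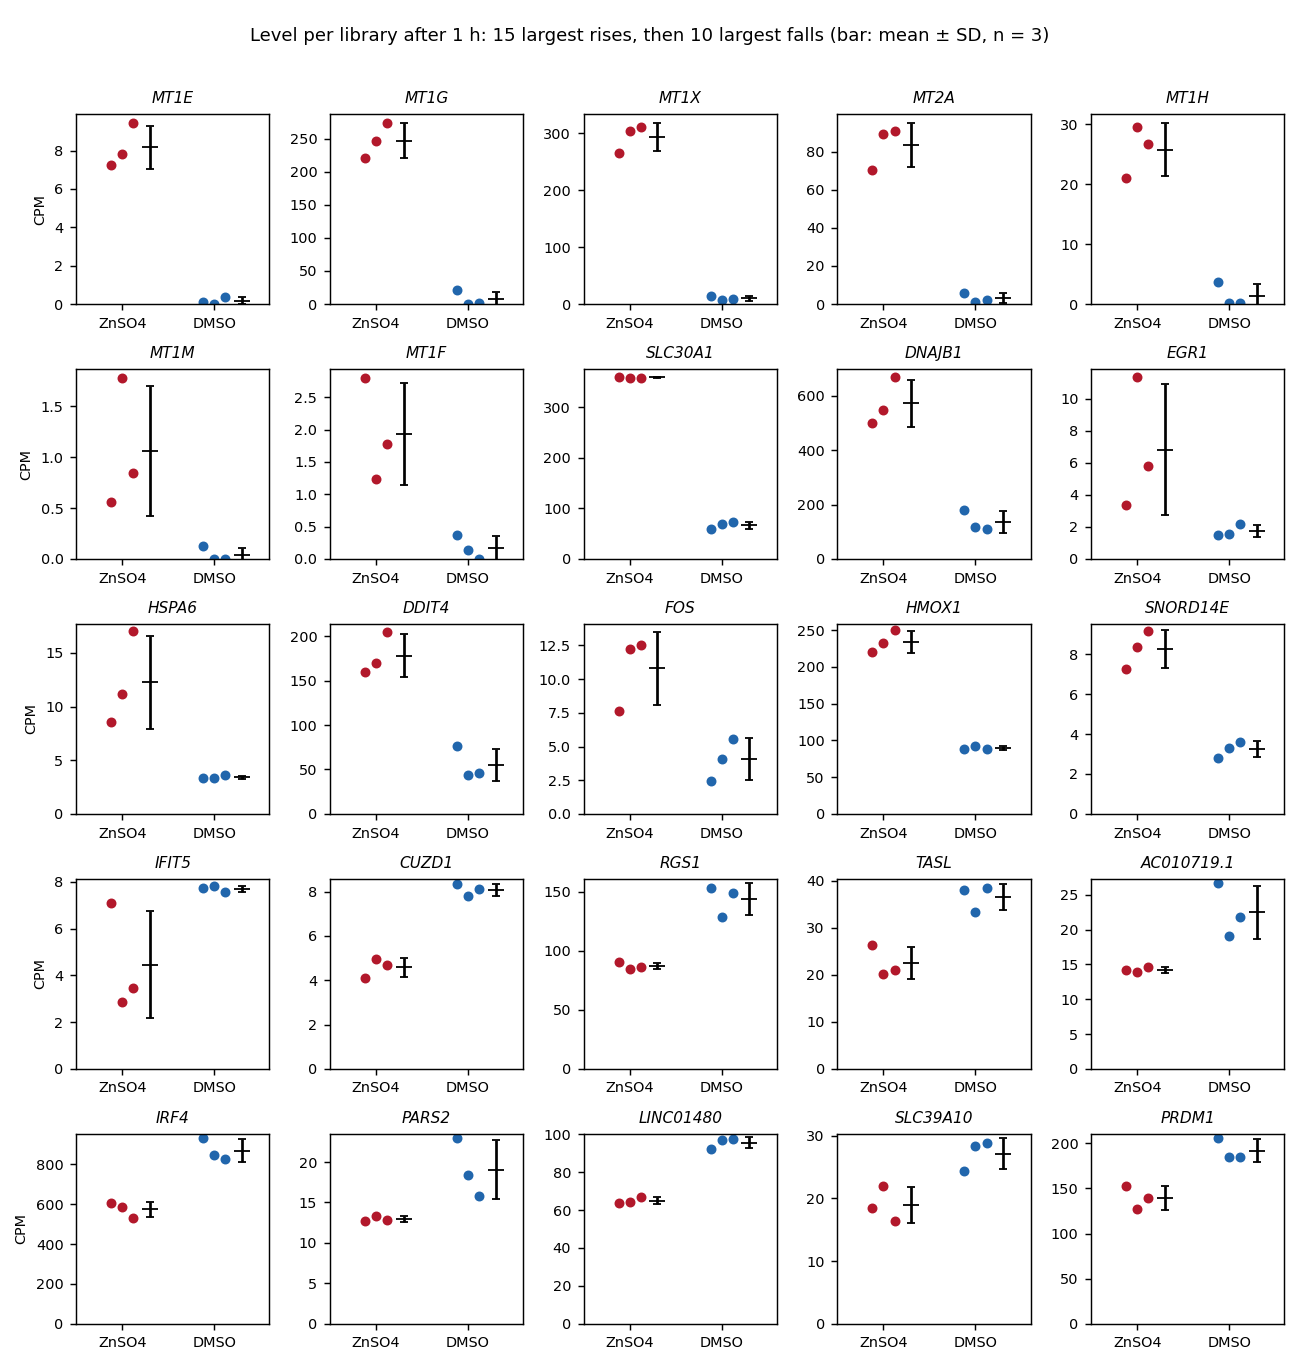
Level per library in CPM (y axis, from 0) after 1 h for the 15 largest rises and then the 10 largest falls whose groups do not overlap, ZnSO4 in red and DMSO in blue, with the mean ± SD (n = 3) as a bar beside each group. DMSO replicate 1, the leftmost blue point, is the highest control for MT1G, MT2A, MT1H, DNAJB1 and DDIT4.

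Of 23 heat shock chaperones tested, 8 rose and 0 fell, where 0.498% of all genes rose. All 23 had a positive log2 fold change, against 50.1% of all genes, and the list's median was 0.13. DNAJB1, the HSP40 co-chaperone that feeds clients to HSP70, had 500, 547 and 669 CPM in ZnSO4 libraries, against 181, 118 and 110 CPM in DMSO libraries (log2 fold change 2.06 ± 0.16, adjusted p = 1.7e-15). HSPA6, an HSP70 that is silent in most unstressed cells, had 8.57, 11.2 and 17 CPM in ZnSO4 libraries, against 3.32, 3.31 and 3.6 CPM in DMSO libraries (1.94 ± 0.31, adjusted p = 3.2e-05). HSPA8, the constitutive HSP70, had 4556, 4430 and 4911 CPM in ZnSO4 libraries, against 4030, 2874 and 2927 CPM in DMSO libraries (0.50 ± 0.09, adjusted p = 0.00029). In each of the 3 genes the treated libraries were all above the controls, and in DNAJB1 and HSPA8 the nearest control was DMSO replicate 1.

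The other chaperones that rose did so by less, and their calls were less steady. DNAJB4 rose by 0.93 and lost its call without ZnSO4 replicate 3 (adjusted p = 0.071). SERPINH1, the collagen chaperone of the endoplasmic reticulum, rose by 0.46 and lost it without DMSO replicate 2 or 3 (adjusted p 0.1 and 0.078). BAG3, an HSP70 co-chaperone that steers clients to autophagy, rose by 0.79, and DNAJA1, another HSP40, by 0.26, and each lost its call without any one of 3 libraries, DMSO replicate 2 or 3 or ZnSO4 replicate 3 (adjusted p 0.064 to 0.083 for BAG3 and 0.13 to 0.26 for DNAJA1). HSP90AA1, the inducible HSP90, rose by 0.29 and lost it without any one of 5 libraries (adjusted p 0.053 to 0.24). With DESeq2, BAG3 and HSP90AA1 missed the threshold (adjusted p = 0.053 and 0.24). Over the list, 4 members rose without DMSO replicate 2 or 3 or ZnSO4 replicate 3, and 7 or 8 without any other library. HSPA1A, listed at 0 counts in all 6 libraries, and HSPA1B, with 14 counts in ZnSO4 libraries and 3 in DMSO libraries, are near-identical copies between which reads can be divided or lost, and neither was tested. HSPA6 likewise has a close copy, the pseudogene HSPA7.

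The choice of control mattered for the chaperones. DMSO libraries at 1 h lay below T0 for 21 of the 23, with a median of -0.10. Of all genes tested, 49.6% had a positive log2 fold change in DMSO over T0. DNAJB1 was called lower there (181, 118 and 110 CPM in DMSO, against 315, 200 and 186 CPM at T0, log2 fold change -0.78, adjusted p = 0.048). Measured against T0, 2 of the 23 were higher in ZnSO4 at 1 h, DNAJB1 (1.29) and HSPA6 (2.29), and the median was 0.07. HSPA8, at 4848, 4163 and 3698 CPM in T0 libraries, then had a log2 fold change of 0.13 (adjusted p = 0.67). The metallothioneins gave 7 rises against T0 as against DMSO.

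From the list of ubiquitin and proteasome stress, ZFAND2A, a proteasome-associated protein first known as arsenite-inducible, rose by 0.48 and lost its call without any one of 3 libraries, DMSO replicate 2 or ZnSO4 replicate 2 or 3 (adjusted p 0.057 to 0.072).

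From the other stress pathways single genes rose in the main fit, 1 per list, where 0.498% of all genes rose. The rest of each list was not called. A positive log2 fold change was found for 19 of 23 NRF2 targets and 23 of 31 ATF4 targets, against 50.1% of all genes. Their medians were 0.08 and 0.04. Without the filter, or with only the groups compared, 2 NRF2 targets and 3 ATF4 targets rose. HMOX1 was the 1 of 23 NRF2 targets to rise. It had 220, 233 and 250 CPM in ZnSO4 libraries, against 88.5, 92.5 and 88.5 CPM in DMSO libraries (1.39 ± 0.12, adjusted p = 4.8e-14). GCLM, which encodes a subunit of the enzyme that starts glutathione synthesis (123, 129 and 131 CPM against 117, 116 and 115 CPM), and TXNRD1, thioredoxin reductase, had log2 fold changes of 0.14 and 0.10 that did not pass (adjusted p = 0.74 and 0.87). DDIT4, an inhibitor of mTORC1 signalling and the 1 of 31 ATF4 targets to rise, had 160, 170 and 205 CPM in ZnSO4 libraries, against 76, 43.3 and 46 CPM in DMSO libraries (1.68 ± 0.13, adjusted p = 5.4e-16). It rose without DMSO replicate 1, its highest control, too (2.01).

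ADM, which encodes the vasodilator adrenomedullin, was the 1 of 22 hypoxia genes to rise, with 109, 115 and 114 CPM in ZnSO4 libraries, against 70, 67 and 67.6 CPM in DMSO libraries (0.72 ± 0.07, adjusted p = 1.3e-12). PMAIP1 (NOXA), a death-promoting BH3-only protein, was the 1 of 14 in the BCL2 family, with 106, 102 and 114 CPM against 85.1, 78.2 and 76.8 CPM (0.43 ± 0.08, adjusted p = 0.00027). ID1, which blocks basic helix-loop-helix factors, was the 1 of 8 in its list (0.86, adjusted p = 0.0065) and lost its call without any one of 3 libraries, DMSO replicate 1 or 3 or ZnSO4 replicate 3 (0.1 to 0.13). No gene passed in the lists of the unfolded protein response and ER chaperones (28 tested), of interferon-stimulated genes (15), of NF-kB targets (17), of p53 targets (16), cholesterol synthesis (23), S phase (21) or G2/M (23). These counts cover the listed genes only. Over all genes tested 0.498% rose and 0.18% fell, the shares beside which 1 of 22, 1 of 14 and 1 of 8 stand. PMAIP1 and BTG2, called higher, were not in the p53 list, and IFIT5, called lower, was not in the interferon list.

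**Figure D3:**
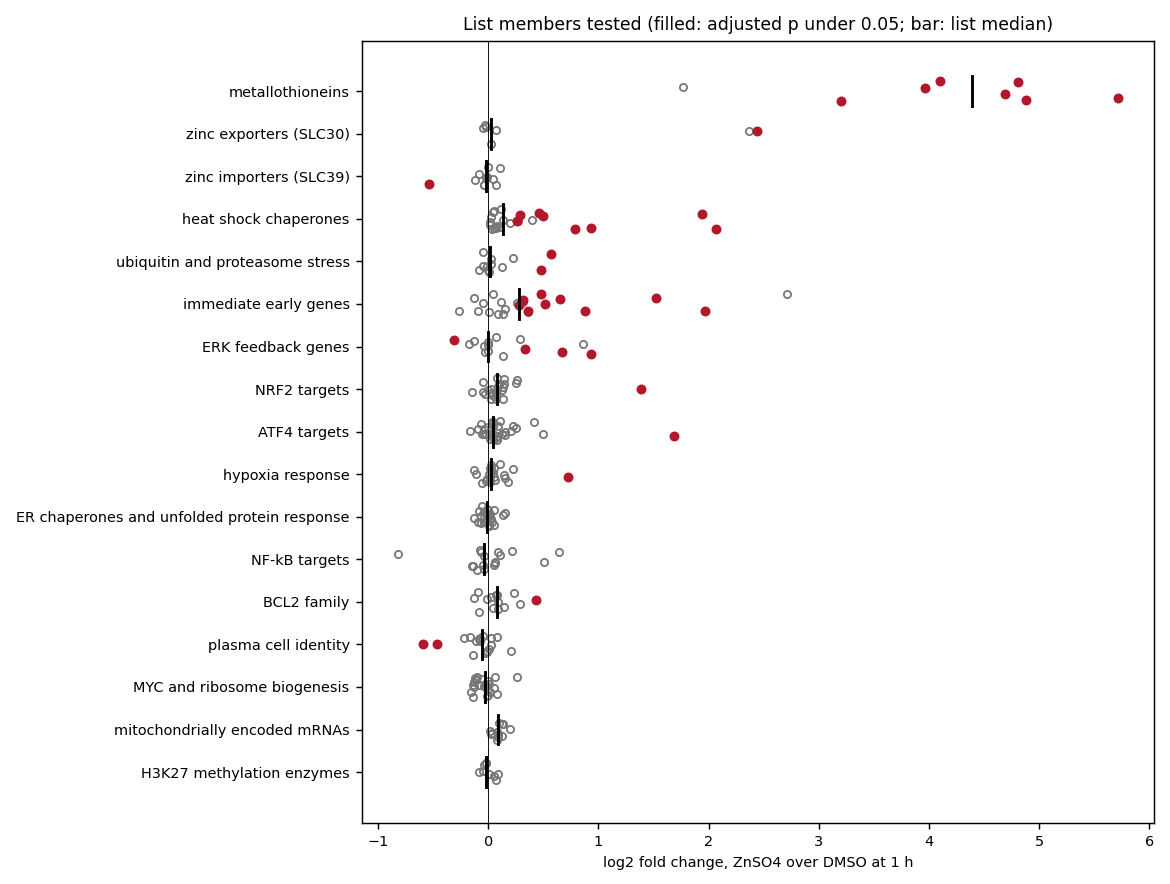
Log2 fold change, ZnSO4 over DMSO at 1 h (x axis), of each tested member of 17 gene lists, one list to a row. Filled red points passed adjusted p under 0.05, open points did not, and the vertical bar is the list's median, 4.39 for the metallothioneins, 0.13 for the heat shock chaperones and 0.28 for the immediate early genes.

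Of 23 immediate early genes tested, 9 rose and 0 fell, where 0.498% of all genes rose. The list's median log2 fold change was 0.28. JUN, a component of the AP-1 transcription factor, had 53.9, 63.9 and 61.6 CPM in ZnSO4 libraries, against 31.9, 32.9 and 33.1 CPM in DMSO libraries (0.88 ± 0.09, adjusted p = 1.1e-11). EGR1, a zinc finger transcription factor, had 3.35, 11.4 and 5.79 CPM in ZnSO4 libraries, against 1.47, 1.59 and 2.16 CPM in DMSO libraries (1.96 ± 0.33, adjusted p = 8.1e-05). The treated libraries were higher throughout but spread widely, with ZnSO4 replicate 2 highest. FOS, the partner of JUN in AP-1, had 7.64, 12.2 and 12.5 CPM in ZnSO4 libraries, against 2.46, 4.11 and 5.58 CPM in DMSO libraries (1.52 ± 0.29, adjusted p = 0.00063), and its p was 0.051 without DMSO replicate 1, the lowest control.

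IER5 rose by 0.52 and BTG2, an antiproliferative regulator of mRNA decay, by 0.28, each called without any one library. ZFP36 (tristetraprolin), which destabilises mRNAs with AU-rich elements, rose by 0.47, with an adjusted p of 0.051 without DMSO replicate 1. ATF3 rose by 0.65 and JUNB by 0.31, and each lost its call without any one of 4 libraries (adjusted p 0.086 to 0.51 for ATF3 and 0.064 to 0.25 for JUNB). IER2 rose by 0.36 and lost it without any one of 5 (0.054 to 0.21). EGR2 was not called, at 9 counts in ZnSO4 libraries and 1 in DMSO libraries. Without DMSO replicate 1 the list held 4 rises, and 6 without ZnSO4 replicate 2 or 3, while against T0 it held 10.

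The feedback genes of ERK signalling moved in both directions, with 3 rises and 1 fall among 15 tested and a median of 0.001. Of all genes tested, 0.498% rose and 0.18% fell. DUSP2, a nuclear phosphatase of MAP kinases, had 37.5, 35.1 and 44.7 CPM in ZnSO4 libraries, against 26.9, 22.8 and 25.2 CPM in DMSO libraries (0.67 ± 0.11, adjusted p = 3.5e-05). DUSP1, of the same family, had 15.3, 17.8 and 18.1 CPM in ZnSO4 libraries, against 5.03, 9.54 and 13.8 CPM in DMSO libraries, and lost its call without DMSO replicate 1, the lowest control (0.59, adjusted p = 0.071). DUSP5 rose by 0.33 and lost its call without DMSO replicate 2 or 3 (adjusted p = 0.12 and 0.17). DUSP6, the cytoplasmic ERK phosphatase, had 44.2, 43.3 and 44.9 CPM in ZnSO4 libraries, against 61.5, 49.9 and 52.5 CPM in DMSO libraries, and fell by 0.31 (adjusted p = 0.047). Its call was lost without any one of 5 libraries (0.076 to 0.84) and with DESeq2 (0.051).

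Regulators of G protein signalling, which shorten the signal of G protein-coupled receptors, also parted. RGS16 had 466, 455 and 474 CPM in ZnSO4 libraries, against 324, 283 and 302 CPM in DMSO libraries (0.62 ± 0.07, adjusted p = 1e-09). RGS1, abundant in B-lineage cells, had 90.2, 84.8 and 86.2 CPM in ZnSO4 libraries, against 154, 128 and 149 CPM in DMSO libraries, and fell by 0.72 (SE 0.09, adjusted p = 2.4e-08). RGS2 rose by 0.50, with the call lost without any one of 3 libraries, DMSO replicate 2 or 3 or ZnSO4 replicate 3 (adjusted p 0.074 to 0.32). These 3 genes were in no list and were named among the 98 after their values were seen.

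Of 18 genes of plasma cell identity, 0 rose and 2 fell, where 0.18% of all genes fell. The list's median was -0.06. IRF4, the transcription factor on which myeloma cells depend, had 606, 587 and 533 CPM in ZnSO4 libraries, against 933, 845 and 827 CPM in DMSO libraries. It fell by 0.60 on the log2 scale (SE 0.06, adjusted p = 3.5e-11), with no overlap. PRDM1 (BLIMP-1), the factor that drives plasma cell differentiation, had 153, 127 and 139 CPM in ZnSO4 libraries, against 207, 185 and 185 CPM in DMSO libraries, and fell by 0.46 (SE 0.07, adjusted p = 1.3e-06). XBP1, the secretory regulator (350, 346 and 383 CPM against 372, 384 and 392 CPM), the surface proteoglycan SDC1 (257, 257 and 253 CPM against 266, 256 and 249 CPM) and JCHAIN had log2 fold changes of -0.08, -0.01 and 0.02 and did not pass. MYC had 1161, 1136 and 1122 CPM in ZnSO4 libraries and 1375, 1198 and 1176 CPM in DMSO libraries (-0.13 ± 0.09, adjusted p = 0.87), and 0 of 23 genes of MYC and ribosome biogenesis were called.

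Further falls were found among regulators outside the lists. ZFP36L2, an mRNA-destabilising relative of ZFP36, had 150, 144 and 144 CPM in ZnSO4 libraries, against 201, 196 and 198 CPM in DMSO libraries, and fell by 0.45 (SE 0.06, adjusted p = 3.7e-08). ZNF217, a zinc finger factor of corepressor complexes, fell by 0.42 (adjusted p = 0.00014). TASL, an adaptor of endolysosomal Toll-like receptors, had 26.3, 20.1 and 21 CPM in ZnSO4 libraries, against 37.9, 33.3 and 38.3 CPM in DMSO libraries (-0.71 ± 0.12, adjusted p = 6.4e-05). The noncoding LINC01480 had 63.7, 64.3 and 66.9 CPM in ZnSO4 libraries, against 92.2, 97 and 97.5 CPM in DMSO libraries (-0.55 ± 0.08, adjusted p = 1.3e-06). The last 4 genes named were called in every one of the 6 fits with a library left out.

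The remaining large falls were less secure. TMEM183AP3, a processed pseudogene, had 6 counts in ZnSO4 libraries and 38 in DMSO libraries (-2.62, adjusted p = 0.019) and lost its call without any one of 4 libraries, with values of -3.70 to -2.20 over the 6 fits with a library left out. POF1B had 14 and 44 counts (-1.68, adjusted p = 0.041) and also lost its call without any one of 4, with values of -2.46 to -1.48. TRIB1, a pseudokinase, fell by 0.42 and lost its call without DMSO replicate 1 (adjusted p = 0.066), as did the noncoding AC010719.1, which fell by 0.66 (0.33 without it). CUZD1 fell by 0.81 and PARS2, the mitochondrial prolyl-tRNA synthetase, by 0.58, and each lost its call without any one of 3 libraries, DMSO replicate 1 or ZnSO4 replicate 1 or 3 (adjusted p 0.074 to 0.1 and 0.063 to 0.61). PIM1, a survival kinase, fell by 0.36 and lost it without any one of 4 (0.064 to 0.1). IFIT5 had 7.08, 2.84 and 3.45 CPM in ZnSO4 libraries, against 7.74, 7.82 and 7.55 CPM in DMSO libraries, so that ZnSO4 replicate 1 lay close to the controls, and lost its call without any one of 5 (0.089 to 0.74).

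Among the other rises, RNF165, a ubiquitin ligase known for BMP signalling in mouse, had 19.2, 18.6 and 17 CPM in ZnSO4 libraries, against 7.12, 8.21 and 8.63 CPM in DMSO libraries (1.19 ± 0.14, adjusted p = 5.4e-09). GRHL1, a transcription factor of epithelia, had 13.2, 11.5 and 11.7 CPM in ZnSO4 libraries, against 5.89, 5.83 and 5.58 CPM in DMSO libraries (1.06 ± 0.17, adjusted p = 3.2e-05). SNORD14E, a small nucleolar RNA, had 7.27, 8.34 and 9.15 CPM in ZnSO4 libraries, against 2.82, 3.31 and 3.6 CPM in DMSO libraries (1.38 ± 0.25, adjusted p = 0.00025). SNORD14E lies within HSPA8, so in these counts reads of the host transcript cannot be told apart from its own.

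The calls of several structural RNAs were lost without ZnSO4 replicate 2. That of 7SK was also lost with only the groups compared (2.77, edgeR adjusted p rounding to 0.05). 7SK, which restrains the elongation factor P-TEFb, had 0.746, 22.4 and 2.71 CPM in ZnSO4 libraries, against 0.614, 1.32 and 1.62 CPM in DMSO libraries, a log2 fold change of 2.79, which was 0.80 without ZnSO4 replicate 2 (adjusted p = 0.8). The mitochondrial ribosomal RNA MT-RNR1 had 209, 630 and 248 CPM in ZnSO4 libraries, against 185, 215 and 204 CPM in DMSO libraries, a log2 fold change of 0.84, which was 0.19 without that library (adjusted p = 0.62). MT-RNR2 lost its call without it as well (0.6), without DMSO replicate 1 (0.1) and with DESeq2 (0.057). All 13 mitochondrially encoded mRNAs were tested and 0 were called, though 13 of 13 had a positive log2 fold change, against 50.1% of all genes. Their median was 0.09.

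The motif counts run over genes with a RefSeq window, 52 of the 72 that rose and 16 of the 26 that fell. The metal response element core was present in 29 of the 52 (55.8%) and in 5 of the 16 (31.2%), against 29.6% of all 35116 windows of the same length (a gene with several windows counts once in the gene sets). Outside the metallothioneins it was present in 26 of 49 raised genes (53.1%), and it was present in all 3 raised metallothioneins with a window, MT1X, MT2A and MT1H. The heat shock element was present in 5 of the 52 and 0 of the 16, against 0.49% of all windows. Those 5 were HSPA6, HSPA8, SERPINH1, DNAJA1 and HSP90AA1, of the 8 raised chaperones (62.5%). The CArG box was present in 1 of the 9 raised immediate early genes, EGR1, against 1.29% of all windows. These are matches of letters only.

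GSK-J4 for 1 h moved the main metal genes too, by less, as the plot of levels by agent shows. MT1X had 265, 304 and 310 CPM in ZnSO4 libraries, against 52.7, 57.3 and 49.6 CPM in GSK-J4 libraries (log2 fold change 2.46 ± 0.10, adjusted p = 8.4e-30). SLC30A1, at 358 to 360 CPM in ZnSO4 libraries, had 163, 187 and 166 CPM in GSK-J4 libraries (1.06 ± 0.07, adjusted p = 1.3e-19). MT1G was higher with ZnSO4 by 3.18, MT1H by 3.09, MT1E by 2.99 and MT2A by 2.63 on the log2 scale. In all, 96 genes (0.664%) differed between the agents, 76 higher with ZnSO4 (0.526%) and 20 lower (0.138%). The doses of the agents are not known, so these are differences between the treatments as given. Both are set against the same DMSO libraries where that control is used, and GSK-J4 against DMSO gave 15 calls (0.104%). Its 5 rises (0.0346%) were MT1X, MT2A, MT1G, SLC30A1 and RGS16.

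DNAJB1, HMOX1 and DDIT4 also differed between the agents. DNAJB1 had 500, 547 and 669 CPM in ZnSO4 libraries, against 119, 125 and 136 CPM in GSK-J4 libraries (2.18 ± 0.17, adjusted p = 3.9e-16). HMOX1 had 220, 233 and 250 CPM in ZnSO4 libraries, against 74.3, 118 and 113 CPM in GSK-J4 libraries (1.20 ± 0.12, adjusted p = 1.9e-11), and DDIT4 differed by 1.25 ± 0.13 (adjusted p = 3.9e-11). SLC39A10, at 18.5, 22 and 16.4 CPM in ZnSO4 libraries and 30.2, 30.3 and 27 CPM in GSK-J4 libraries, was the largest of the falls between agents among the genes called against DMSO (-0.65 ± 0.11, adjusted p = 4.8e-05), and RGS1 (-0.65) and IRF4 (-0.44) were also lower with ZnSO4. RGS16 (466, 455 and 474 CPM against 408, 414 and 419 CPM) and DUSP6 (44.2, 43.3 and 44.9 CPM against 36.1, 39 and 32.1 CPM) did not pass between agents (adjusted p = 0.4 and 0.11). KDM6A and KDM6B, the enzymes GSK-J4 inhibits, had log2 fold changes of 0.05 and 0.09 with ZnSO4 over DMSO and were not called.

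**Figure D4:**
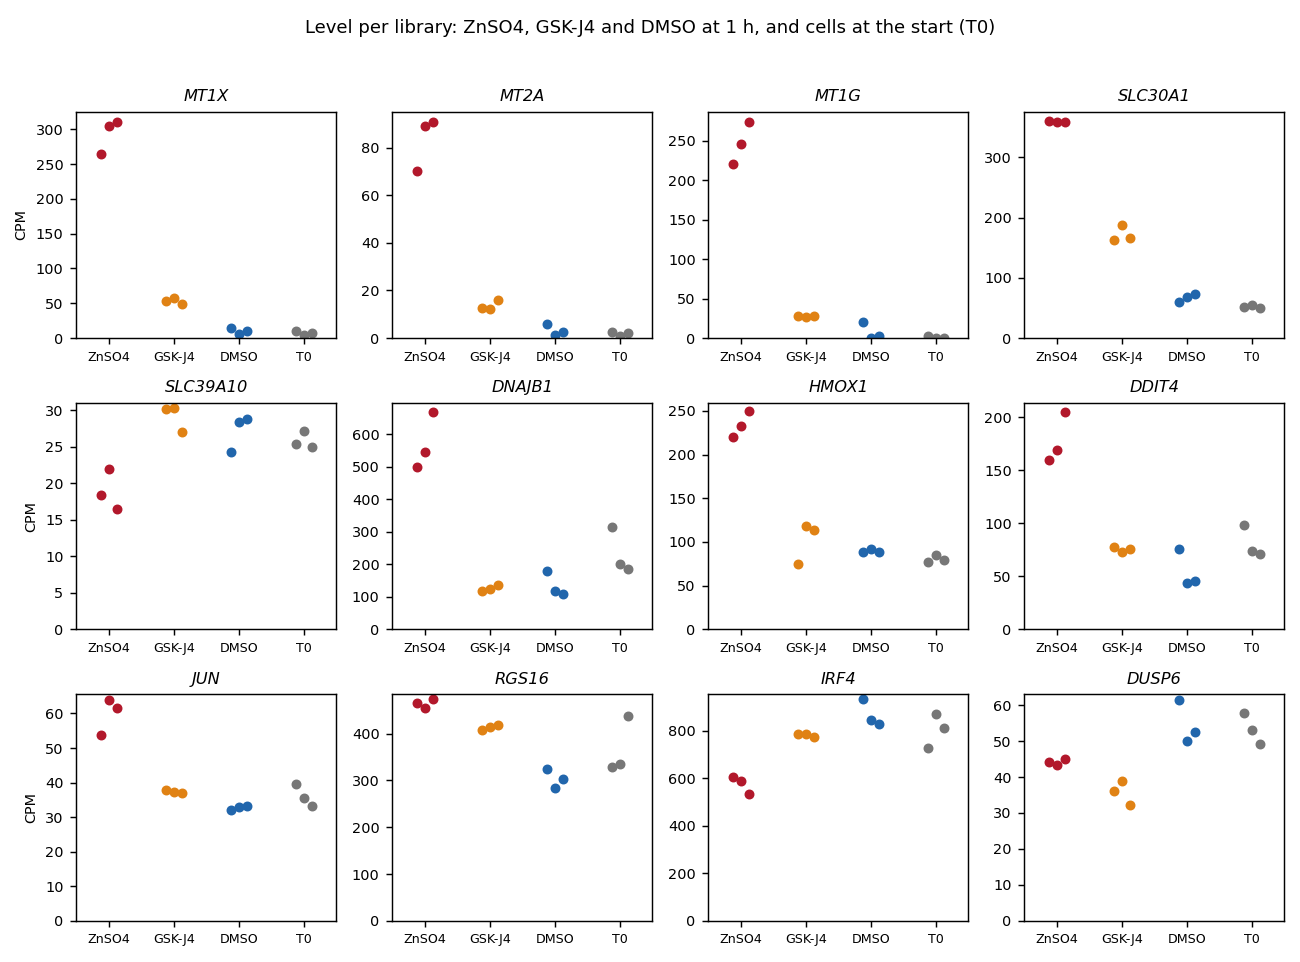
Level per library in CPM (y axis, from 0) of 12 genes in ZnSO4 (red), GSK-J4 (orange) and DMSO (blue) libraries at 1 h and at the start (T0, grey), 3 libraries each. MT1X, MT2A, MT1G and SLC30A1 lie highest with ZnSO4 and between with GSK-J4, whereas in DNAJB1 and HMOX1 the ZnSO4 libraries lie above those of the other 3 groups.

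The first hour was the start of a longer series, in which ZnSO4 was compared with DMSO of the same time. At 3 h 1555 genes were called (10.8%; 6.59% higher, 4.16% lower), at 6 h 1348 (9.32%; 4.81% higher, 4.51% lower) and at 24 h 1382 (9.56%; 3.98% higher, 5.58% lower). Of the 72 genes raised at 1 h, 60 were also higher at 3 h, 24 at 6 h and 34 at 24 h, and their median log2 fold change was 0.61, 0.91, 0.23 and 0.32 at 1, 3, 6 and 24 h. Of the 26 lowered, 12 were also lower at 3 h, 7 at 6 h and 9 at 24 h, with medians of -0.45, -0.35, -0.16 and -0.19. The raised genes not called at 3 h were 12, among them JUNB, ID1, SNORD14E and 7SK.

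The difference between the effects at 3 h and 1 h was tested directly and passed for 401 genes (2.77%), 321 upward (2.22%) and 80 downward (0.553%). Of the 72 raised genes, 27 had a larger effect at 3 h and 0 a smaller one. MT2A averaged 705 ± 77.6 CPM with ZnSO4 and 2.27 ± 0.229 CPM with DMSO at 3 h (SD, n = 3 each), and its log2 effect grew by 3.57 ± 0.45 (SE, adjusted p = 4.1e-08). HMOX1 averaged 2393 ± 217 CPM with ZnSO4 and 86.8 ± 6.56 CPM with DMSO at 3 h, and its effect grew by 3.39 ± 0.17 (adjusted p = 1.4e-24). HSPA6 averaged 116 ± 20.8 CPM with ZnSO4 and 2.66 ± 0.801 CPM with DMSO at 3 h and grew by 3.45 ± 0.51 (adjusted p = 1.9e-06). SERPINH1 grew by 1.74 ± 0.14 (adjusted p = 3.6e-15). DNAJB1, DDIT4 and JUN differed little between 1 and 3 h, by 0.23, 0.18 and 0.02, and these differences did not pass (adjusted p = 0.75, 0.77 and 0.98, SE 0.22, 0.18 and 0.12).

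Of the 26 lowered genes, SLC39A10 was further down at 3 h, where it averaged 10.7 ± 0.745 CPM with ZnSO4 and 24.1 ± 2.73 CPM with DMSO (difference -0.60 ± 0.16, adjusted p = 0.022). RGS1 (0.57 ± 0.12, adjusted p = 0.0018) and ZFP36L2 (0.33 ± 0.08, adjusted p = 0.0073) were less down at 3 h than at 1 h. Both were above DMSO at 6 h, by 0.39 (adjusted p = 0.00051) and 0.27 (0.00046). IRF4 had log2 fold changes of -0.60, -0.69, -0.21 and -0.33 at 1, 3, 6 and 24 h, each called.

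Later the groups parted in direction. MT1X kept log2 fold changes of 7.48, 7.50 and 6.20 at 3, 6 and 24 h and SLC30A1 of 3.03, 2.13 and 2.39. At 6 h 4 of the 72 raised genes were lower than DMSO, among them DNAJB1 (-0.53, adjusted p = 0.027), HSPA8 (-0.61, adjusted p = 1.3e-06) and the nuclear noncoding RNA NEAT1 (-0.25, adjusted p = 0.042), whose rise of 0.43 at 1 h lost its call without DMSO replicate 3 (adjusted p = 0.054). At 24 h 3 were lower, JUN (-0.23, adjusted p = 0.0061), ATF3 (-0.27, adjusted p = 0.038) and BTG2 (-0.22, adjusted p = 0.004). DMSO levels themselves moved over the series: JUN averaged 32.6 ± 0.618 CPM in DMSO at 1 h and 382 ± 18.5 CPM at 24 h, and EGR1 1.74 ± 0.366 and 190 ± 9.15 CPM.

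**Figure D5:**
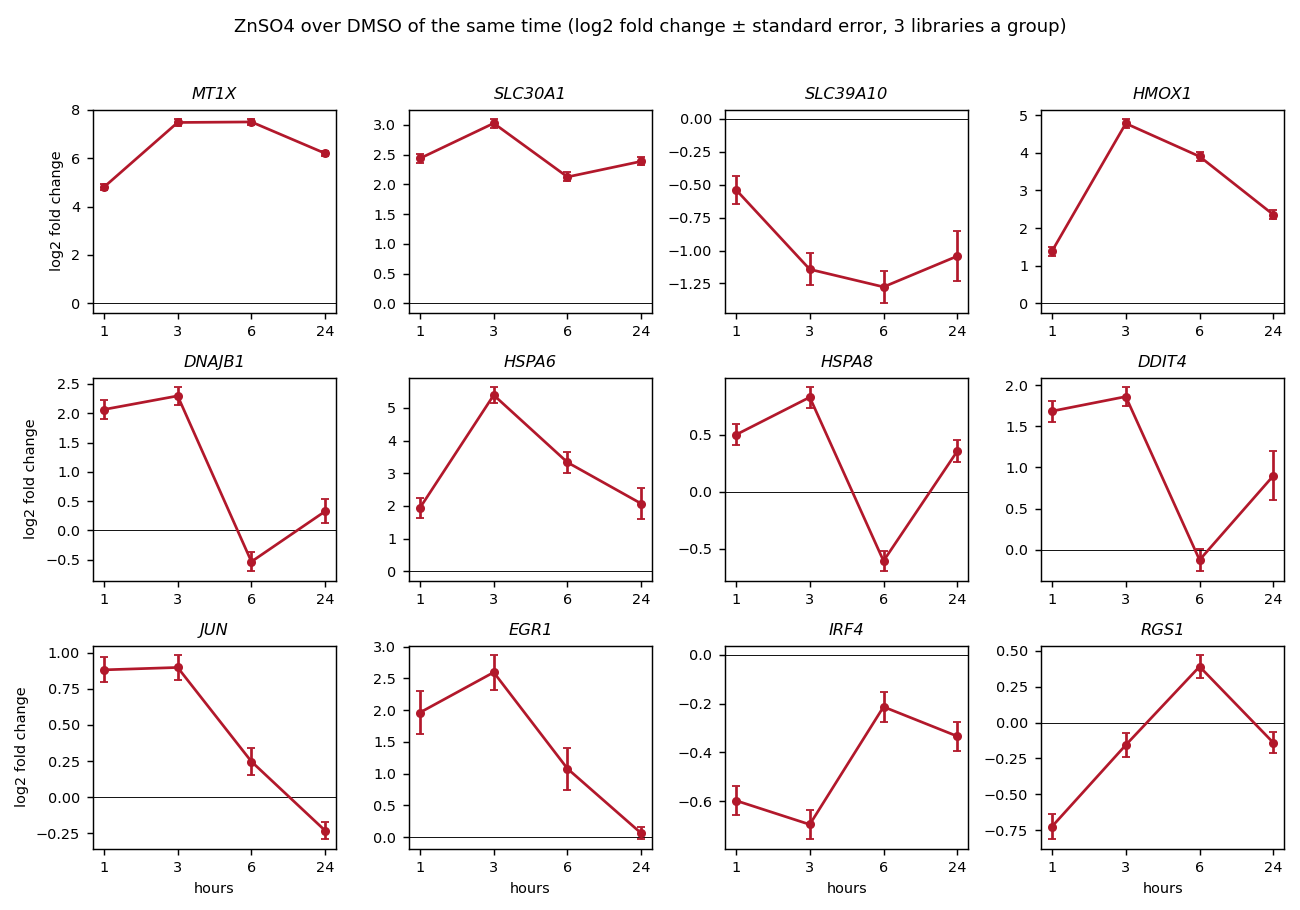
Log2 fold change of ZnSO4 over DMSO of the same time (y axis, its range differing between panels) at 1, 3, 6 and 24 h (x axis, evenly spaced), with the standard error, for 12 genes called at 1 h. MT1X and SLC30A1 stay far above 0 throughout, DNAJB1 and HSPA8 cross below 0 at 6 h, and RGS1 is above 0 at 6 h.

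The control itself was set against the start. DMSO at 1 h against T0 gave 5 calls (0.0346%) at adjusted p under 0.05, all at 0.048, with 1112 genes (7.69%) at an unadjusted p under 0.05. That count was unsteady: it was 47 without T0 replicate 1, 58 without T0 replicate 2, 31 without the filter on low counts and 0 under 4 other settings. MT1G was higher (2.98), with 20.6, 0.132 and 2.16 CPM in DMSO, against 2.33, 0.264 and 0.394 CPM at T0, and DMSO replicate 1 stood alone. VPS13C, OGT and TBCEL were higher in DMSO by 0.26 to 0.38, and DNAJB1 was lower. Set against T0, ZnSO4 at 1 h gave 167 calls (1.15%), 119 higher (0.823%) and 48 lower (0.332%). Of the 98 genes called against DMSO, 72 were called in the same direction against T0 and 26 were not called. MT1X (5.32), SLC30A1 (2.79), HMOX1 (1.55), DDIT4 (1.14), JUN (0.72), IRF4 (-0.48), PRDM1 (-0.44) and RGS1 were among the 72. The 26 included 6 of the 8 raised chaperones, all but DNAJB1 and HSPA6, and also ZFAND2A (0.27, adjusted p = 0.24), NEAT1 (0.23, 0.19), RGS2 (0.32, 0.22), DUSP6 (-0.28, 0.081), PIM1 (-0.21, 0.27), CUZD1 (-0.56, 0.2), PARS2 (-0.42, 0.17), TMEM183AP3 (-1.71, 0.34) and POF1B (-1.26, 0.24).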

How the data were processed

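The series holds RNA-seq of JJN3 cells, 39 libraries in 13 groups of 3. Per the labels' protocols, Trizol was used for RNA and the NEBNext Ultra RNA kit for libraries. HISAT2 2.1.0 and the build hg19 come from the submitters' processing notes. How reads were assigned to genes, with which annotation and strand setting, is not given in the sources used. The authors deposited raw counts, whole numbers for each gene and library, and these were used unaltered. Samples were grouped by their labelled treatment and time; the labels' protocol text names 3, 6 and 24 h, and the 1 h groups follow the sample labels.

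Of 57773 Ensembl identifiers, 39538 were given symbols by the name table, 12800 by GENCODE 29 alone, and 5435 remained without one. Columns of no sample numbered 0. Promoter windows were matched by symbol to RefSeq on GRCh38.p14, another build than the alignment's, so no coordinate of the counts is given.

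All 39 libraries were fitted together with edgeR 4.0.16 in R 4.3.3 (limma 3.58.1): TMM scaling, genes kept by filterByExpr at a minimum count of 10, a separate coefficient for every group, and quasi-likelihood F-tests. The fit kept 14460 genes with 26 residual and 34.7 prior degrees of freedom and a biological coefficient of variation of 4.80%. Adjusted p-values are Benjamini-Hochberg values over all genes tested in a comparison, and the threshold was 0.05. Standard errors were taken as the absolute log2 fold change divided by the square root of F. CPM values were computed from the deposited counts with TMM scaling. For MT1E, MT1M and SLC30A2, each with 1 to 3 counts in a group, a ratio with an exact 95% interval is given, which covers counting error only. Series libraries held 4347745 to 10695671 counts (median 6010529). The pipeline was tested on simulated data.

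Alternatives were RLE size factors, library totals alone, no filter, no 24 h libraries, only the groups compared, DESeq2 1.42.0, each library left out, T0 in place of DMSO, adjusted p under 0.01 and a 2-fold limit. List counts under each were added after seeing the data. The comparison, the gene lists and the rule for named genes were chosen with earlier results of these data known. The rule allows any gene with adjusted p under 0.05 and a symbol. It gives each library's CPM for the 15 largest rises and 10 largest falls without overlap and for up to 5 members of a list. For ZnSO4 against GSK-J4 and for 3 h against 1 h it names up to 6 genes in each direction. For DMSO against T0 it names up to 4. Some genes are always named, such as MTF1, MYC and KDM6A. For ZnSO4 against GSK-J4 it also picked 7SK, LINC01480, TRIB1 and MTRF1L, which are not described there. For 3 h against 1 h it picked only SLC39A10 in the downward direction. Other genes in these comparisons, such as DNAJB1, DDIT4 and SERPINH1, were added outside that part of the rule. RNF165, GRHL1, RGS2, NEAT1 and ZFP36L2 are named under the rule's first clause.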

Additional observations from a re-analysis of the deposited data

Results flagged for a closer look

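The effect of ZnSO4 over DMSO at 3 h differed from that at 1 h for 401 genes by the test of the difference itself in edgeR's quasi-likelihood model. Among the genes called at 1 h with the largest differences, the log2 effect was larger at 3 h by 7.23 for MT1H, 6.49 for MT1F, 5.51 for MT1G and 3.57 for MT2A, all metallothioneins, by 3.45 for the chaperone HSPA6 and by 3.39 for HMOX1. The zinc importer SLC39A10 was further down at 3 h, by -0.60. DMSO replicate 1 was the highest 1 h control for each of these 4 metallothioneins, and without it the log2 effect at 1 h was 7.24 in place of 4.10 for MT1H, 4.32 in place of 3.21 for MT1F, 7.93 in place of 4.88 for MT1G and 5.70 in place of 4.69 for MT2A. MT1F had 4 counts or fewer in the DMSO libraries of either time, so its value depends on the prior count of the fit.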

How the results depend on the processing

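The count of genes changed by ZnSO4 over DMSO at 1 h was 98 and lay between 73 and 108 under 7 other settings, with 66 to 94 when each library was left out. It was 167 with T0 in place of DMSO and 24 at a 2-fold limit. The cause of the higher count against T0 was not tested; the 2-fold limit leaves fewer genes by construction. At the threshold of 0.05 and with DMSO as control, 42 of the 98 genes kept their call under each scaling, filter, set of libraries and tool that tested them and without each library, and 0 turned round, while 56 lost it at least once. MT1F, one of the 42, was untested with only the 6 libraries. ZnSO4 against GSK-J4 gave 86 to 101 genes (71 to 103 with a library left out) and the difference between 3 h and 1 h gave 323 to 505 (270 to 411), 281 higher and 116 lower with library totals alone against 321 and 80. DMSO against T0 was unstable: 5 genes, but 0 with RLE factors, library totals, no 24 h libraries or only the groups compared, 13 with DESeq2, 31 without the filter and 1 to 58 with a library left out, with 523 to 1115 genes at an unadjusted p under 0.05 where the count was 0; the cause was not tested. Among genes not called, KDM6A lay between -0.073 and 0.22 with a library left out, the negative value without ZnSO4 replicate 2, and MYC to 0.14 against T0. Fitting only the 6 libraries left MT1F, MT1M, POF1B and TMEM183AP3 untested, and DESeq2 gave no adjusted p for POF1B and TMEM183AP3. Depth limits genes under about 1 CPM, where 3 counts equal 0.28 to 0.569 CPM in these libraries. No paired analysis was possible because the labels give no replicate numbers shared between groups.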

Other observations

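Genes named ZNF, most of which encode zinc finger proteins presumed to bind DNA, leaned upward at 1 h. The group was chosen after its values were seen. Of 432 tested, 14 were higher with ZnSO4 than with DMSO and 1, ZNF217, was lower, which is 19.4% of all genes that rose, and 303 (70.1%) had a positive log2 fold change, against 50.1% of all genes. Their median was 0.11, against 0.0005 over all genes. ZNF16 had 29.1, 37.1 and 34.3 CPM in ZnSO4 libraries, against 15.3, 15.8 and 18 CPM in DMSO libraries (1.05 ± 0.12, adjusted p = 8.6e-10 by edgeR), and ZNF845 had 35.8, 38.2 and 37.4 CPM, against 23.5, 20.8 and 24.1 CPM (0.71 ± 0.11, adjusted p = 1.2e-05). ZNF616 (0.80), ZNF441 (0.61), ZNF302 (0.40), ZNF92 (0.42) and ZNF408 (0.51) were also called without each of the 6 libraries in turn. The 14 are 3.24% of the 432, against 0.498% of all genes tested. At 3 h 58 of the 432 were higher (13.4%, against 6.59% of all genes) and 10 lower, at 6 h 11 (2.55%, against 4.81%) and 5, and at 24 h 44 (10.2%, against 3.98%) and 1. With GSK-J4 over DMSO at 1 h 0 were called by edgeR in either direction, 63.2% were positive and the median was 0.05. With DMSO over T0 0 were called, 58.3% were positive and the median was 0.04. The number higher at 1 h was 8 to 13 under the alternatives with DMSO as control and 27 against T0.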
